A study of Mus musculus with 40 samples.

Results

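The genes described here encode the nuclear-encoded subunits of oxidative phosphorylation, the chain of mitochondrial enzyme complexes that turns the oxidation of nutrients into ATP, followed through 12 groups of mouse mammary gland RNA. Members were taken from the deposited expression table by symbol, as genes whose name begins with Nduf, Uqcr, Atp5 or Cox4 to Cox8, or is Sdha, Sdhb, Sdhc or Sdhd. The table holds 22552 genes, of which 90 matched and 88 were kept, since the rule leaves out Cox7a1 and Cox8b. Sorted by their products, 36 members belong to complex I, 4 to complex II, 8 to complex III, 17 to complex IV and 15 to complex V, which makes 80 subunit genes. The other 8 share the symbols without being structural subunits. They are the complex I assembly factors Ndufaf1, Ndufaf2, Ndufaf3 and Ndufaf4, the Ndufa4 paralog Ndufa4l2, Atp5s, Atp5sl, and Cox4nb, which is named for lying beside Cox4i1 and encodes no respiratory subunit. Of the 88 members 86 reached 1 FPKM in at least 1 group, the level asked of every gene in the comparisons below, and 14273 genes of the whole table did so. FPKM are fragments scaled by transcript length and by library total, so levels can be set side by side between genes.

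In this pathway complex I takes electrons from NADH and complex II takes them from succinate, as an enzyme of the citric acid cycle. Complex III hands the electrons on to cytochrome c, complex IV passes them to oxygen, and the proton gradient built on the way drives ATP synthase, complex V. In complex I the core subunits form the catalytic part, and accessory subunits surround and stabilise it. Several positions in complexes IV and V can be filled by isoforms from separate genes. In the mammary gland, pregnancy replaces a fat-rich stroma by secretory epithelium that needs ATP for milk synthesis.

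The study compared whole mammary tissue of outbred mice that differed in EZH1 and EZH2, either of which can serve as the histone H3 methyltransferase in the Polycomb complex PRC2. Control mice carried MMTV-Cre (line A), a transgene in which a mouse mammary tumour virus promoter drives Cre recombinase, and this transgene is also present in the Ezh2f/f;control mice (Ezh2 KO) and the E1+/-;E2f/f;control mice (Ezh1 het Ezh2 KO). Cells in which that promoter is inactive keep Ezh2. The Ezh1 KO mice were labelled E1-/-, with no Cre named. At days 13 and 18 of pregnancy (p13 and p18) all of these genotypes were sampled, while virgin mice of 12 weeks, taken at estrus, were Control or Ezh2 KO. From virgin mice 1 gland was collected under anaesthesia, after its lymph node was removed, and the opposite gland was collected 2 h after an intraperitoneal injection of prolactin at 5 µg per g. The side, the earlier surgery and the anaesthesia thus cannot be told apart from prolactin in that comparison. The 31 RNA libraries form 12 groups, 5 of 2 libraries and 7 of 3, and 9 chromatin samples of the series are not analysed here.

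Each gene has 1 deposited value per group, so neither a spread between mice nor a p-value can be given, and the likeness of the libraries within a group could not be examined. Read depth is unknown. Milk protein transcripts took 0.278% to 0.395% of all FPKM in the virgin groups, 1.85% to 15.0% at p13 and 30.5% to 47.7% at p18, and the table's column sums ranged from 581531 to 1151970, so values at p18 depend on the scale used. Ezh1 stood at 1.06 FPKM in the p13 Ezh1 KO group and 0.627 in the p18 Ezh1 KO group, against 3.41 to 19.4 in the other 10. Ezh2 was 12.9 FPKM in p13 Control and 13.7 in p13 Ezh2 KO, and 10.0 and 6.41 at p18. These are gene-level values of mixed tissue, in which the deleted part is not separated, so Ezh2 does not check the label. Skeletal muscle markers (14 genes) summed to 11102 FPKM in p13 Control and 2807 in p13 Ezh1 KO, against 45.0 to 490 in the other groups. White adipocyte markers (11 genes) summed to between 35748 and 59318 FPKM in virgin groups, 12453 to 31522 at p13 and 5965 to 13467 at p18. Luminal markers (12 genes, none below 1 FPKM in any group) summed to between 937 and 2777 FPKM. In bulk tissue such as this, fewer cells of a type and less RNA per cell cannot be told apart.

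The subunit genes were among the most abundant transcripts of the gland and varied little. The median of the 86 members lay at the 97.3rd percentile of mean FPKM, 65 of them lay above the 95th percentile, and 60 stayed above 100 FPKM in every group. In 58 members the highest group was less than 2 times the lowest. The other 28 reached 2 times or more, where 76% of all genes that passed the same level did so, as did 63.1% of the 1750 genes with a mean of at least 50 FPKM. Only 3 members reached 3 times, Cox6a2, Atp5g1 and Sdha. Cox4i1, the subunit IV of cytochrome oxidase that every cell uses, ranged from 847 FPKM in p18 Control to 1288 in virgin Ezh2 KO glands after prolactin. Atp5k, the small e subunit of ATP synthase, ranged from 754 to 1302 FPKM. At the other end, the core complex I subunit Ndufs1 ranged from 31.6 to 81.4 FPKM and the accessory subunit Ndufa11 from 23.2 to 44.7. Many of these genes have processed copies elsewhere in the genome that can share reads, and the sources used here do not say how such reads were assigned.

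**Figure D1:**
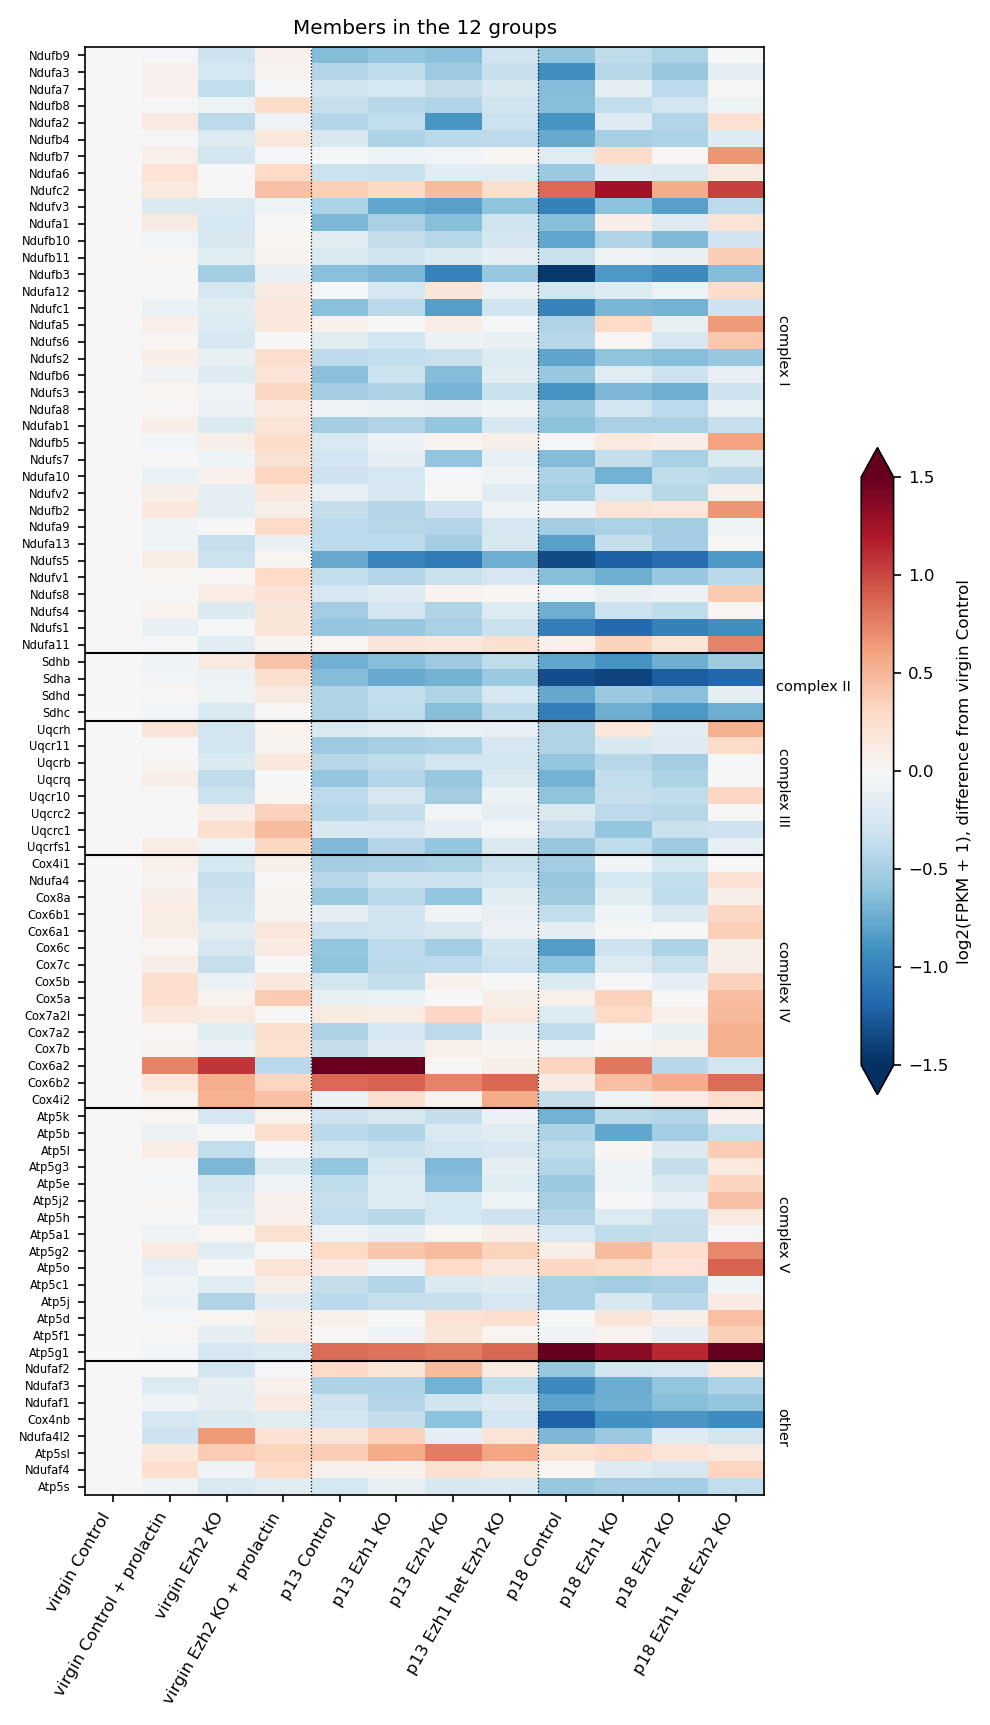
Heat map of the 86 members (rows, grouped by complex and ordered by mean FPKM) in the 12 groups (columns). Colour gives log2(FPKM + 1) minus the same in virgin Control, with values beyond 1.5 in size drawn in the end colours. In every pregnant group but p18 Ezh1 het Ezh2 KO, 64 to 75 of the 86 members lie below virgin Control. In p18 Ezh1 het Ezh2 KO 48 lie above it. Atp5g1 and Ndufc2 are among the members that are red in all 8 pregnant columns.

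From virgin to p13 the members were lower in both genotypes that were sampled at both stages. The median member FPKM was 236 in virgin Control and 195 in p13 Control. In Control glands 71 of 86 members were lower at p13 and 15 were higher, where 33% of all genes were lower. Differences are log2(FPKM + 1) of the later or treated group minus the other, a scale that understates differences of low genes. On it the members' median was -0.35 and the median of all genes 0.17. Only Cox6a2 passed 1 log2 unit (a factor of 2), upward, where 11.9% of all genes passed it in either direction. In the Ezh2 KO groups, whose muscle markers were low at both stages, 59 of 86 members were lower at p13 with a median of -0.16, where 42.1% of all genes were lower and their median was 0.12. There Atp5g1 passed 1 log2 unit upward and Cox6a2 downward, where 20.1% of all genes passed.

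Between p13 and p18 the sign of the members' difference depended on the scale. In Control it was negative in 66 of 86 members with a median of -0.17, but 80.9% of all genes were lower as well and their median was -0.46. Set against the median of all genes, the members were therefore higher, by 0.29. In Ezh2 KO 49 members were lower, where 88.9% of all genes were, and the members stood 0.39 above the median of all genes. In Ezh1 KO 47 members were higher, where 13% of all genes were, and the members stood 0.53 above that median. For Ezh1 het Ezh2 KO 60 members were higher, where 17.2% of all genes were, and the members stood 0.72 above it. The p13 to p18 difference was larger in this genotype than in Control for 75 of 86 members, by a median of 0.41, where it was larger for 51.6% of all genes, which was not tested. Cox6a2 was the only member past 1 log2 unit in Control and in Ezh1 KO, downward in both. No member passed it with Ezh2 KO, and Atp5g1 did so upward with Ezh1 het Ezh2 KO. Of all genes 22.6%, 13.7%, 5.2% and 17.6% passed it in those 4 comparisons, in the same order. As a share of all FPKM outside the milk protein genes, the members took 4.32% to 4.75% in virgin groups, 3.52% to 4.29% at p13 and 4.13% to 4.84% at p18. The p13 range thus lay below the virgin range, and the p18 range overlapped both.

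Over the whole span from virgin to p18 in Control glands, 75 of 86 members were lower with a median of -0.53, where 64.9% of all genes were lower. Of the members 9 passed 1 log2 unit, where 25.6% of all genes did, 7.8% upward and 17.8% downward. Atp5g1 was higher, and Ndufb3, Ndufs5, Ndufv3, Ndufc1, Ndufs1, Sdha, Sdhc and Cox4nb were lower. With columns brought to a common sum 61 members passed it, where 42.7% of all genes did, and Atp5g1 stood at 0.93. In Ezh2 KO 57 members were lower with a median of -0.17, where 71.8% of all genes were lower. Relative to the median of all genes the members stood 0.18 higher, and with a common upper quartile their median was 0.16. On the deposited scale Atp5g1 passed 1 log2 unit upward and Sdha and Cox6a2 downward, where 20.9% of all genes passed.

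The complexes did not share one course, and complex II stood lowest. Its 4 genes encode the flavoprotein Sdha, the iron-sulfur subunit Sdhb and the membrane anchors Sdhc and Sdhd. Sdha was at 253 FPKM in virgin Control, 247 after prolactin, 238 in virgin Ezh2 KO and 299 there after prolactin. At p13 it was at 160.4 FPKM in Control, 149 in Ezh1 KO, 155 in Ezh2 KO and, highest of these, 172 in Ezh1 het Ezh2 KO, and at p18 at 100.5, 96.6, 107 and 111 in the same order. The 3 stages did not overlap in any genotype, and virgin Control stood 2.52-fold above p18 Control. Sdhb was at 227 to 317 FPKM in virgin groups, 142 to 181 at p13 and 127 to 163 at p18, so that only the virgin range stood apart. Sdhc was at 180.5 to 214, 136 to 162 and 102 to 127 FPKM in the 3 stages, and Sdhd at 185 to 213, 141 to 163 and 114 to 174. In Control from virgin to p18 the median difference was -0.91 for complex II, -0.63 for complex I, -0.51 for complex III, -0.44 for complex V and -0.36 for complex IV.

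A share within the members does not depend on how the columns were scaled. Complex II made up 2.90% to 3.42% of the members' summed FPKM in the 4 virgin groups, 2.50% to 2.59% at p13 and 1.76% to 2.14% at p18, with no overlap between stages. Complex I took 27.04% to 27.7%, 25.6% to 27.1% and 24.9% to 26.1%, so neighbouring stages overlapped. Complex V took 28.3% to 29.2% in virgin groups, 31.1% to 31.4% at p13 and 30.3% to 32.2% at p18, with the virgin groups apart from both stages of pregnancy. Complex III, with 11.3% to 12.3%, and complex IV, with 27.5% to 29.8%, showed no such order. White adipocyte marker sums were lower in pregnancy than in virgin groups, as given above. From p13 to p18 they were lower in every genotype but Ezh2 KO, where they were 12453 FPKM at p13 and 13467 at p18 while the complex II share was 2.50% and 2.07%. Their part in these shares was not tested.

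**Figure D2:**
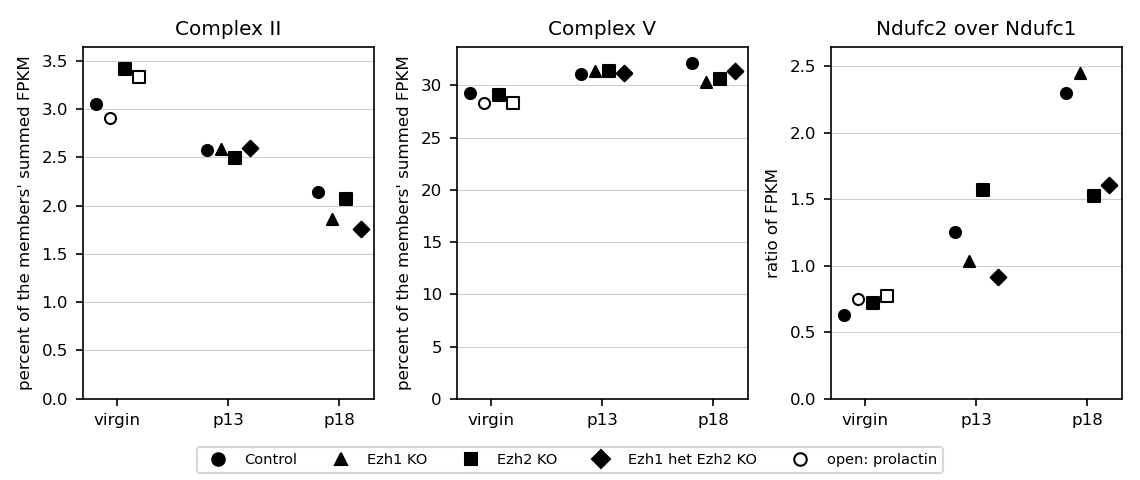
Scale-free quantities by stage, 1 symbol per group (circle, Control; triangle, Ezh1 KO; square, Ezh2 KO; diamond, Ezh1 het Ezh2 KO; open symbols, virgin after prolactin). The vertical axes give complex II and complex V as a percent of the members' summed FPKM and the ratio of Ndufc2 to Ndufc1 FPKM, all from 0; the complex II symbols step down from virgin (2.90% to 3.42%) to p18 (1.76% to 2.14%).

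Within complex I Ndufc1 and Ndufc2, accessory subunits of its membrane arm, ran in opposite directions over the stages in Control. Ndufc2 was at 169 FPKM in virgin Control, 216 in p13 Control and 303 in p18 Control. Ndufc1 was at 267, 173 and 132 FPKM in the same groups. In Ezh2 KO Ndufc1 was at 236, 149.6 and 163 FPKM and Ndufc2 at 169.8, 235 and 249, so both were higher at p18 than at p13, and their ratio there was 1.53 after 1.57. The ratio of Ndufc2 to Ndufc1 was 0.633 to 0.772 in the virgin groups, 0.916 to 1.57 at p13 and 1.53 to 2.45 at p18, so virgin groups lay below every pregnant group and the p13 and p18 ranges overlapped. Ndufb9 and Ndufa3 are the complex I accessory subunits with the highest mean. Ndufb9 had 437 to 568 FPKM in virgin groups, 346 to 440.5 at p13 and 364 to 540.2 at p18, and Ndufa3 had 451 to 568, 373 to 425 and 287 to 492. All 7 core subunits of complex I were lower in p18 Control than in virgin Control, and of the 29 accessory subunits 27 were.

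In complex III the 2 genes with the highest mean were Uqcrh, the hinge protein that helps cytochrome c to bind, and Uqcr11, a small accessory subunit. Uqcrh was at 631 to 873 FPKM in virgin groups, 653 to 712 at p13 and 559.5 to 1109.5 at p18, and Uqcr11 at 499 to 632, 419 to 514 and 445 to 743. Uqcrc1, a core protein of the matrix side, moved over the widest range relative to the other members of this complex, with 167 to 233 FPKM in virgin groups, 141 to 163 at p13 and 112 to 134 at p18. Its stages did not overlap, while those of Uqcrh and Uqcr11 did.

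In complex V the catalytic subunits Atp5a1 and Atp5b, alpha and beta of the head, kept a ratio of 0.490 to 0.516 in virgin groups and 0.568 to 0.665 in the 8 pregnant groups. Atp5b itself was at 950.5 to 1214 FPKM in virgin groups, 736 to 886 at p13 and 585 to 792 at p18. The largest departure among the subunits, apart from Cox6a2, was subunit c. Subunit c forms the rotating ring of ATP synthase, and Atp5g1, Atp5g2 and Atp5g3 encode the same mature protein with different import peptides. Atp5g1 was at 92.4 FPKM in virgin Control, 89.8 after prolactin, 77.5 in virgin Ezh2 KO and 79.5 there after prolactin. At p13 it was at 166 in Control, 163 in Ezh1 KO, 159 in Ezh2 KO and, highest of these, 168 in Ezh1 het Ezh2 KO. At p18 it was at 279.7, 236, 203 and 355 FPKM in the same order. Every p13 value lay above every virgin value and every p18 value above every p13 value, and p18 Control stood 3.03-fold above virgin Control.

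The 3 genes did not share this course. Atp5g3, the most abundant, was at 582 to 925 FPKM in virgin groups, 584 to 840.0 at p13 and 683 to 1024 at p18, and Atp5g2 at 353 to 432, 487 to 554 and 425 to 657. Atp5g1 made up 6.22% to 7.66% of the 3 genes' summed FPKM in virgin groups, 11.1% to 13.1% at p13 and 14.1% to 20.2% at p18. Atp5g3 made up 57.4% to 65.4%, 45.0% to 55.6% and 49.2% to 52.9%. The sum of the 3 overlapped between stages, at 1013 to 1444, 1271 to 1511 and 1388 to 2036 FPKM.

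The sequences before the 3 start sites are shown because the genes encode the same mature protein and differed in course. Each line gives 250 bases upstream of the annotated start, 5′ to 3′ on the gene's strand, from RefSeq on build GRCm38.p6, which is not the mm9 build named for the files. Capitals mark a match to a motif listed after the sequences, on either strand. They cover chr11:96075632-96075881 for Atp5g1, chr15:102671048-102671297 for Atp5g2 and chr2:73911327-73911576 for Atp5g3, all on the minus strand.
Atp5g1: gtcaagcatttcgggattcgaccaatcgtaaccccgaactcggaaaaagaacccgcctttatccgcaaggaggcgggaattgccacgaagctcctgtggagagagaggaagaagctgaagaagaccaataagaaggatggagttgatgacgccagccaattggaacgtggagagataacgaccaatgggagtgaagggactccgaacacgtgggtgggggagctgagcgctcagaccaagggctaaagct
Atp5g2: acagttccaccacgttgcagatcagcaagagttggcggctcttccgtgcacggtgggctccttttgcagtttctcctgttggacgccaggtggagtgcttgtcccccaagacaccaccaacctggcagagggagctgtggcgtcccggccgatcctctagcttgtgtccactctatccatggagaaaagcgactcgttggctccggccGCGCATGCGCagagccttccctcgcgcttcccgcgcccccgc
Atp5g3: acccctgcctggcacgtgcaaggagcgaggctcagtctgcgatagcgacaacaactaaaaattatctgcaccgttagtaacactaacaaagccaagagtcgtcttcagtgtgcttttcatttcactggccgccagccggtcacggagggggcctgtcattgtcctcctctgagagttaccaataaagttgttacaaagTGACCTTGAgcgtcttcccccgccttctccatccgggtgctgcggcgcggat

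Motifs of 4 factor families were searched in these 250 bases on both strands, GCGC and TGCGC with any 1 base between them for NRF1, CCGGAAG for ETS factors, AAGATGGCG for YY1 and TCAAGGTCA for estrogen-related receptors (ERR). Atp5g2 held the NRF1 letters 42 bases before the start, Atp5g3 held the ERR letters 52 bases before it, and the Atp5g1 window held none of the 4. An entry was found for 66 of the 80 subunit genes. The NRF1 letters occurred in 13 of these 66 windows (19.7%), against 4.23% of 27025 genes with an entry. They occurred in 8.62% of the 10966 entries that could be matched to the 14273 genes reaching 1 FPKM. The ETS letters occurred in 12 windows (18.2%), against 7.83% and 14.5% of those sets. YY1 letters were in 1, Atp5j, and ERR letters in 1, Atp5g3, 1.52% each, against 0.71% and 1.32% for YY1 and 0.422% and 0.283% for ERR. These are matches of letters and not bound sites.

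**Figure D3:**
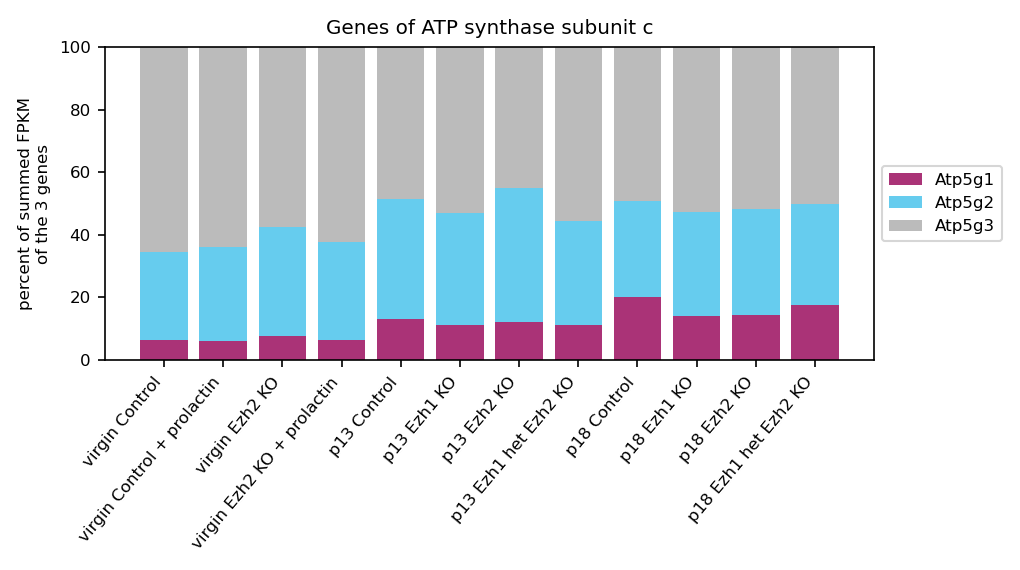
Stacked bars of Atp5g1, Atp5g2 and Atp5g3 as percent of their summed FPKM (vertical axis, 0 to 100) in each of the 12 groups. The Atp5g1 segment is 6.22% to 7.66% in the virgin bars, 11.1% to 13.1% at p13 and 14.1% to 20.2% at p18.

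Among the members, alternative isoforms of complex IV were minor throughout, with a single departure in Cox6a2. This is the heart and skeletal muscle isoform of subunit VIa. Cox6a2 was at 94.9 FPKM in p13 Control and 16.2 in p13 Ezh1 KO, and between 0.146 and 2.2 in the other 10 groups. It thereby made up 11.4% and 2.13% of its pair with the ubiquitous Cox6a1 in those 2 groups and at most 0.268% elsewhere. The 2 groups are those with the high muscle markers given above. Muscle creatine kinase, Ckm, had 1404 FPKM in the former and 383 in the latter, with 20.7 as the highest value elsewhere. Cox6a2 accounted for the single member past 1 log2 unit below Control in each p13 genotype comparison. Whether muscle tissue in the samples sets these values was not tested.

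The hypoxia-induced Cox4i2 was at 3.24 to 7.003 FPKM, 0.354% to 0.723% of its pair with Cox4i1, and Cox6b2, a testis isoform, at 3.42 to 7.197 FPKM, 0.349% to 0.900% of its pair with Cox6b1. Ndufa4l2, another hypoxia-induced gene, was at 6.51 to 17.6 FPKM beside 728 to 1256 for Ndufa4, which encodes a subunit of complex IV despite its name. Cox7a2l, a factor that joins complexes III and IV into supercomplexes, was at 193 to 313 FPKM beside 176 to 353 for Cox7a2. Cox7b2 and Cox8c, testis isoforms, reached at most 0.0529 and 0.0355 FPKM and were listed at 0 in 9 and 10 of the 12 groups, beside 143 to 268 FPKM for Cox7b and 726 to 1160 for Cox8a. Of the muscle and brown fat isoforms left out by the rule, Cox8b was at 609 and 799 FPKM in virgin Ezh2 KO glands without and with prolactin. In virgin Control it was at 279 and 359 FPKM. Cox8a was at 876 and 1124 FPKM in virgin Ezh2 KO and 1084 and 1160 in virgin Control. Cox7a1 was at 211 and 213 FPKM in virgin Ezh2 KO and 27.6 and 53.3 in virgin Control. Cox7a2 was at 215 and 288 FPKM in virgin Ezh2 KO and 244 and 246 in virgin Control. These isoforms left out by the rule were thus not minor in virgin Ezh2 KO. The brown fat uncoupling protein Ucp1 was at 210.0 and 347 FPKM in virgin Ezh2 KO and 2.003 and 67.8 in virgin Control.

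Among the genotypes at p18 the members were higher than in Control in each case, and most in Ezh1 het Ezh2 KO. The median member FPKM was 176 in Control, 198 in Ezh2 KO, 220.2 in Ezh1 KO and 275 in Ezh1 het Ezh2 KO. For the last, 84 of 86 members were higher than in Control with a median of 0.57, where 49% of all genes were higher and their median was 0.00. Ndufa2 and Ndufa5, accessory subunits of the matrix arm of complex I, passed 1 log2 unit, where 2.77% of all genes did. Ndufa2 was at 220.3 FPKM in p18 Control, 299 in Ezh2 KO, 355 in Ezh1 KO and 476 in Ezh1 het Ezh2 KO, which was 2.16-fold above Control. Ndufa5 was at 131, 166, 221 and 282 FPKM, the last 2.14-fold above Control. Neither passed 1 log2 unit on the sum scales described at the end, with 0.88 and 0.86 for a common sum and 0.71 and 0.70 without milk protein genes. With Ezh2 KO 73 of 86 members were higher, with a median of 0.16, where 48.8% of all genes were. With Ezh1 KO 72 were higher, with a median of 0.27, where 50.7% of all genes were. None passed 1 log2 unit in either, where 4.53% and 2.6% of all genes did. The 3 comparisons share the Control column, which held the lowest value of the 12 groups for 48 members, where it did so for 22.1% of all genes.

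On the deposited scale 82 of 86 members were higher in p18 Ezh1 het Ezh2 KO than in p18 Ezh2 KO. The median difference was 0.42, where 48.8% of all genes were higher. As a share of all FPKM the members instead stood higher in p18 Ezh2 KO, at 3.01% against 2.84% in p18 Ezh1 het Ezh2 KO. Milk protein transcripts took 30.5% and 41.3% of all FPKM in these groups. As a share of FPKM outside the milk protein genes the members took 4.33% and 4.84%, in the same order. On the deposited scale p18 Ezh1 het Ezh2 KO also held the highest value of all 12 groups for 36 members. It did so for 5.6% of all genes. In complexes I, III and V the median difference from Control was larger for accessory or membrane subunits than for core or head subunits. The median was 0.43 for the 7 core and 0.68 for the 29 accessory subunits of complex I. It was 0.21 for the 3 core and 0.74 for the 5 accessory subunits of complex III. In complex V it was 0.16 over the head subunits Atp5a1 and Atp5b, and 0.79 over the membrane subunits Atp5k, Atp5l and Atp5j2. Uqcrh was at 559.5 FPKM in Control and 1109.5 in Ezh1 het Ezh2 KO, while Uqcrc1 was at 132 and 134. Complex II, with 0.28, differed least. In p18 Ezh1 KO the same split was 0.18 and 0.34 in complex I, -0.18 and 0.26 in complex III, and -0.24 and 0.41 in complex V.

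Cytosolic ribosomal protein genes, another set of abundant transcripts, had a median difference of 0.72 in p18 Ezh1 het Ezh2 KO, with 81 of 83 higher. Transcript lengths were not used here, and the part of length in these differences was not tested. White adipocyte markers summed to 9987 FPKM in that group and 5965 in p18 Control, and luminal markers to 2323 and 2144.

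At p13 the members differed little from Control. The median member FPKM was 195 in Control, 195 in Ezh1 KO, 192 in Ezh2 KO and, highest of these, 214 in Ezh1 het Ezh2 KO. In Ezh2 KO 54 of 86 members were higher with a median of 0.05, where 51.4% of all genes were higher, and 9.23% passed 1 log2 unit against 1 member, Cox6a2. In Ezh1 KO 50 were higher with a median of 0.02, where 46.8% of all genes were, and 4.38% passed 1 log2 unit. In Ezh1 het Ezh2 KO 76 of 86 were higher with a median of 0.15, where 48.7% of all genes were, and 6.32% passed 1 log2 unit. All 8 genes of complex III and all 15 of complex V were among those 76. The 3 comparisons share the p13 Control column, whose muscle and erythroid transcripts stood high.

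**Figure D4:**
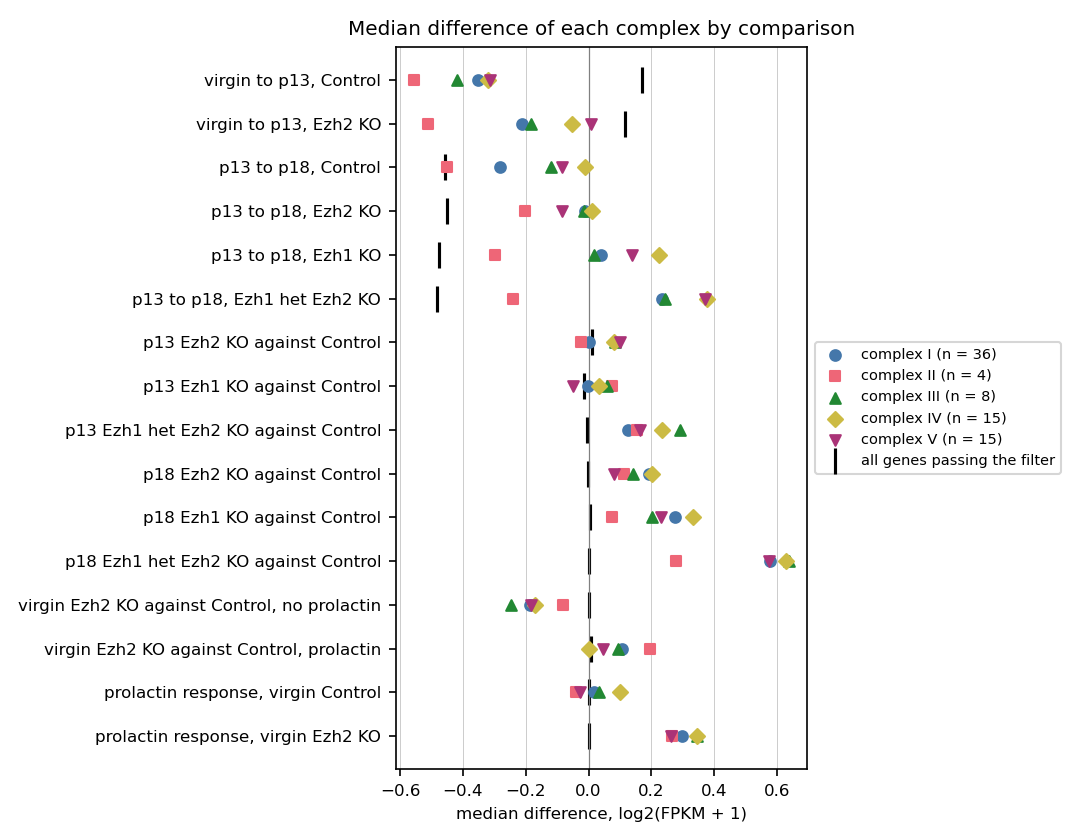
Median difference in log2(FPKM + 1) of each complex (coloured symbols) and of all genes that passed the filter (black bars) in 16 of the comparisons. In p18 Ezh1 het Ezh2 KO against Control, complexes I, III, IV and V lie between 0.57 and 0.64 and complex II at 0.28, with all genes at 0.00.

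In virgin glands the Ezh2 KO members were slightly below Control before prolactin and slightly above after it. Before prolactin 68 of 86 were lower with a median of -0.18, where 48.9% of all genes were lower. After it 59 were higher with a median of 0.08, where 51.1% of all genes were higher. Cox6a2 was the only member past 1 log2 unit in each, where 4.26% and 3.48% of all genes were, and its levels there were 2.2 FPKM or less. Atp5g3 differed most among the abundant members before prolactin, at 925 FPKM in Control and 582 in Ezh2 KO.

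At 2 h after prolactin the members were higher in Ezh2 KO glands and near their starting level in Control. The median member FPKM was 219 in Ezh2 KO before and 255 after prolactin, and 236 and 239 in Control. In Ezh2 KO 80 of 86 members were higher after prolactin with a median of 0.29, where 49.7% of all genes were higher. All members of complexes I, II, III and V were among the 80, and those that were lower were Cox6a2, Cox6b2, Cox4i2, Cox7a2l, Ndufa4l2 and Atp5sl. In Control 51 of 86 were higher with a median of 0.02, where 49% of all genes were. Cox6a2 in Ezh2 KO was the only member past 1 log2 unit, where 6.82% of all genes were, and none passed it in Control, where 6.47% did. The response in Ezh2 KO minus that in Control was positive in 80 of 86 members with a median of 0.27, where it was positive in 54.3% of all genes with a median of 0.03. This difference could not be tested with 1 value per group.

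Atp5b may serve as an example of the abundant genes. It was at 1008 FPKM in virgin Control and 950.5 after prolactin, and at 1005 in virgin Ezh2 KO and 1214 after prolactin. Sdhb was at 236, 227, 260.0 and 317 FPKM in the same order. Virgin Ezh2 KO after prolactin held the highest value of the 12 groups for 33 members, where it did so for 12.7% of all genes. Markers of other cells differed between these 4 groups as well. Lymphocyte markers (10 genes) summed to 22.4 FPKM in Control and 222 after prolactin, and to 277 in Ezh2 KO and 10.5 after prolactin. White adipocyte markers summed to 50080 and 56171 FPKM in Control and 35748 and 59318 in Ezh2 KO, and luminal markers to 1789, 1883, 937 and 1215. In the same order brown adipocyte markers (11 genes) summed to 347, 566, 1317 and 1750 FPKM, basal epithelial markers to 215, 420, 287 and 543, and muscle markers to 128, 326, 98.2 and 490. Brown adipocyte and basal marker sums were thus higher after prolactin in both genotypes. The muscle sum was too, but Acta1 alone made up most of it after prolactin. Acta1 was at 13.0 and 273 FPKM in Control and 8.46 and 431 in Ezh2 KO, before and after. Ckm was instead at 8.13 and 0.291 FPKM in Control and 2.40 and 0.142 in Ezh2 KO. Of the 14 muscle markers 2 and 7 were below 1 FPKM in Control, and 4 and 8 in Ezh2 KO. The part of these markers in the response was not tested.

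The assembly factors were far less abundant than most subunits. Of the 4, Ndufaf2, a complex I chaperone, was the highest at 19.0 to 40.2 FPKM, and Ndufaf4 the lowest at 4.91 to 7.77. Among the subunits Ndufa11, at 23.2 to 44.7 FPKM, overlapped Ndufaf2, and the isoforms Cox4i2 and Cox6b2 overlapped Ndufaf4. From virgin to p13 in Control 2 of the 4 Ndufaf genes were higher and 2 lower, and in p18 Ezh1 het Ezh2 KO all 4 were above Control with a median of 0.39.

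Neighbouring pathways split into those that went with the members and those that did not. From virgin to p13 in Control 17 of 18 citric acid cycle genes were lower (median -0.45), as were 13 of 16 fatty acid oxidation genes (median -0.56), where 33% of all genes were. Mitochondrial ribosome (21) and protein import (15) genes had medians of -0.04 and 0.08, regulators of mitochondrial biogenesis (16) 0.28 and glycolytic genes (16) 0.20. From virgin to p18 in Control fatty acid oxidation stood at -1.10, with 15 of 16 lower and 9 of them past 1 log2 unit, where 64.9% of all genes were lower and 17.8% by that much, and the citric acid cycle at -0.66. In p18 Ezh1 het Ezh2 KO against Control all 21 mitochondrial ribosome and all 15 import genes were higher, where 49% of all genes were, with medians of 0.62 and 0.55, while the citric acid cycle stood at 0.15 and the biogenesis regulators at -0.01. After prolactin in Ezh2 KO the citric acid cycle (0.26, 18 of 18 higher), fatty acid oxidation (0.30, 15 of 16 higher) and import (0.28, 15 of 15 higher) genes were higher along with the subunits, where 49.7% of all genes were. Ppargc1a, a coactivator of mitochondrial biogenesis, was at 2.58 FPKM in virgin Ezh2 KO and 6.89 after prolactin, and at 1.56 and 2.04 in Control. The subunits encoded by mitochondrial DNA are not analysed here.

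Because milk transcripts fill much of the p18 columns, the medians were also computed on 4 other scales, with columns brought to a common sum, a common upper quartile, a common sum without milk protein genes, and a common sum after also dropping muscle and erythroid genes. With the deposited scale this makes 5. From virgin to p13 the members' median was negative on all 5, at -0.53 to -0.35 in Control and -0.47 to -0.16 in Ezh2 KO. From p13 to p18 in Control it ranged from -0.71 to 0.33, while relative to the median of all genes it was positive on all 5, at 0.20 to 0.37. The p18 Ezh1 het Ezh2 KO median was positive on all 5, at 0.18 to 0.57, and at 0.47 to 0.57 relative to all genes, whose own median went down to -0.29. The p18 Ezh2 KO median was also positive on all 5, at 0.07 to 0.48. The virgin Ezh2 KO prolactin median was positive on all 5, at 0.08 to 0.29, and that of Control ranged from -0.16 to 0.02.

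**Figure D5:**
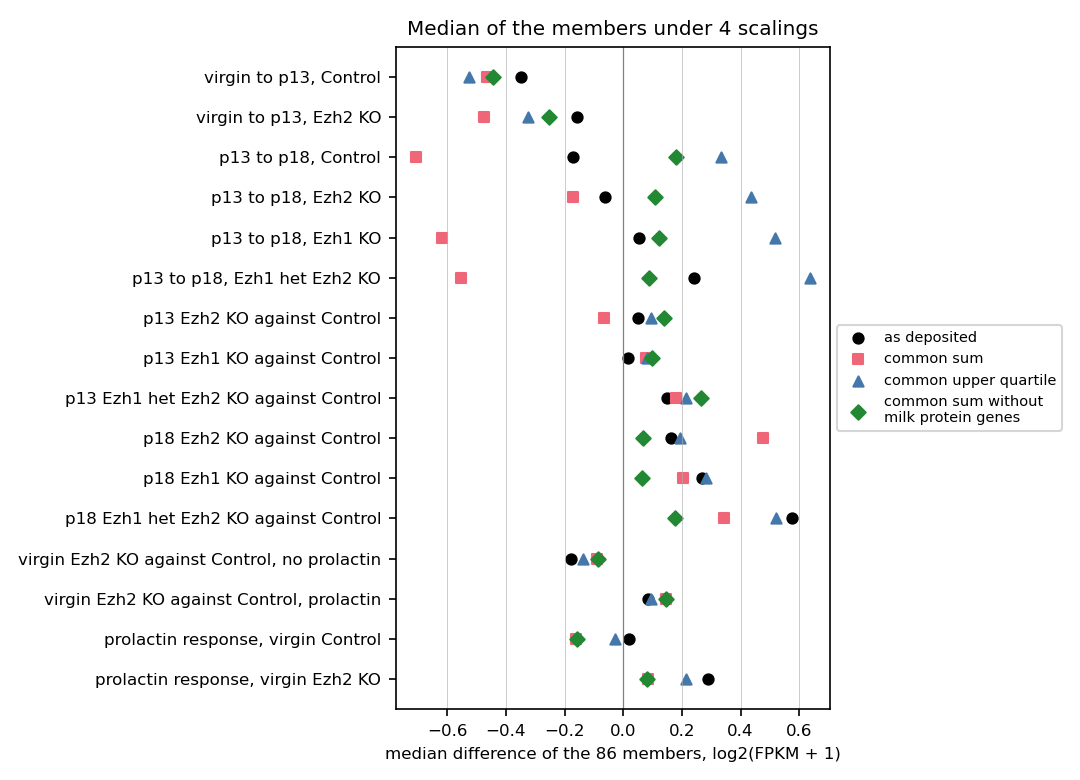
Median difference of the 86 members in log2(FPKM + 1) for 16 comparisons on 4 scales (circle, as deposited; square, common sum; triangle, common upper quartile; diamond, common sum without milk protein genes). Symbols fall on both sides of 0 for p13 to p18 in each of the 4 genotypes and stay above 0 for p18 Ezh1 het Ezh2 KO against Control.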

How the data were processed

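Poly(A) RNA of whole mammary glands was sequenced in 31 libraries forming 12 groups, taken from the sample labels. The authors deposited FPKM for 22552 genes, with 1 value per group and gene. Per the submitters' processing notes, build mm9 and, without versions, TopHat, Cufflinks and Cuffdiff were used, with BWA, HOMER, Bowtie, FastQC, CASAVA and Trim Galore also listed. How libraries of a group were combined, the annotation and the counting are not given in the sources used here. No depth, SD or p-value can be had, and limma could not be fitted. Genes with at least 1 FPKM in any group were kept (14273). Differences are log2(FPKM + 1), and 1 log2 unit or more in size was counted as called over 18 comparisons, which is a description and not a test. Members and gene lists were chosen with earlier results of these data known, and the cytosolic ribosomal list and the scale without milk, muscle and erythroid genes were added after seeing the data.

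Genes named are, per complex, the 2 with the highest mean and the 1 with the widest range relative to the members, then genes called in a genotype or prolactin comparison, isoform families, and the Sdh and Ndufaf genes; Ndufs1, Ndufa11, Ndufc1, Atp5a1, Atp5j2, Atp5l, Atp5j, Cox4nb, Ckm, Ucp1, Ppargc1a and genes named for a virgin to p18 difference or a lower value after prolactin were chosen after their values were seen. Acta1 and Cox7a1 were also chosen after their values were seen. The other scales, a 5 FPKM filter or none, and a pseudocount of 0.1 or 5 served as alternatives. Functions were tested on simulated data. Motif windows came from RefSeq on GRCm38.p6. Python 3.11.15, pandas 2.3.3, NumPy 2.4.6 and matplotlib 3.10.9 were used.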

Additional observations from a re-analysis of the deposited data

How the results depend on the processing

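The number of members past 1 log2 unit changed by over 1.5 times as follows. With a pseudocount of 0.1 it was 2 for virgin to p13 and 2 for p13 to p18 in Control, 1 for p13 to p18 in Ezh2 KO, 1 for p18 Ezh2 KO against Control and 1 for prolactin in Control. Of all genes 17.1%, 32%, 12.6%, 7.52% and 10.4% passed with that pseudocount, in the same order. With a pseudocount of 5 the number of members was 5 for virgin to p18 in Control. It was 0 for virgin to p13 in Ezh2 KO, both virgin genotype comparisons (without and with prolactin) and prolactin in Ezh2 KO. Of all genes 14.1%, 10.4%, 1.62%, 1.45% and 3.01% passed there, in the same order. With a common sum it was 15 for p13 to p18 and 61 for virgin to p18 in Control, 4 for virgin to p13 and 12 for virgin to p18 in Ezh2 KO, 10 for p13 to p18 in Ezh1 KO and in Ezh1 het Ezh2 KO, and 0 for p18 Ezh1 het Ezh2 KO against Control. Of all genes 44.7%, 42.7%, 22.3%, 35.8%, 52.9%, 58.7% and 2.96% passed on that scale, in the same order. With a common upper quartile it was 3, 4, 1, 4 and 9 for p13 to p18 Control, virgin to p18 Control, virgin to p13 Ezh2 KO, p13 to p18 Ezh1 KO and p13 to p18 Ezh1 het Ezh2 KO, where 16.3%, 23.4%, 20.1%, 7.9% and 9.84% of all genes passed. Without milk protein genes it was 2, 5, 1, 2 and 0 for these, and 0 for p18 Ezh1 het Ezh2 KO against Control. Of all genes 17.4%, 23.7%, 20.4%, 12.2%, 22.6% and 5.32% passed there. Without milk, muscle and erythroid genes the members' counts were the same, where 17.9%, 23.7%, 20.4%, 12.4%, 22.8% and 5.31% of all genes passed. The members' median changed sign for p13 to p18, to 0.33 (upper quartile), 0.18 (without milk) and 0.15 (without milk, muscle and erythroid) in Control, to 0.44, 0.11 and 0.12 in Ezh2 KO, and to -0.62 and -0.55 (common sum) in Ezh1 KO and Ezh1 het Ezh2 KO. It also did for virgin to p18 in Ezh2 KO (0.16, upper quartile), p13 Ezh2 KO against Control (-0.066, common sum) and prolactin in Control (-0.16 on each sum scale, -0.027 for upper quartile). The cause was not tested. Of the other medians 105 moved by less than 0.1 and 25 by more without changing sign. Single genes past 1 log2 unit stayed so in 166 cases and dropped below it in 42, among them Ndufa2 and Ndufa5 at p18 with a common sum (0.88 and 0.86). No paired analysis was possible because each group has 1 deposited column and the columns carry no replicate numbers. Leaving out a library was not possible for the same reason. Depth is unknown, so no limit from counting can be given.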
